A study of Homo sapiens with 9 samples.

Results

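The genes described are 9 that are commonly listed as replication-independent histone variants: H2AFX, H2AFZ, H2AFV, H2AFY, H2AFY2 and H2AFJ of the H2A family, H3F3A and H3F3B of the H3 family, and the linker histone gene H1FX. They were taken by name from the 64253 gene identifiers in the count files, and each matched 1 identifier. RNA was measured in IMR90, a normal human lung fibroblast line, kept at 2% oxygen and used at population doubling 30. There were 3 groups of 3 libraries, with replicates a, b and c: a vector control, shRRM2, and shRRM2/shp16. All cells received 2 pLKO.1 lentiviral infections 24 hours apart and were selected with 3 ug/mL puromycin for 7 days. Control cells carried vector only, called an empty vector in the sample labels and a GFP vector in the treatment protocol. The shRRM2 cells carried a hairpin against RRM2, which encodes a subunit of the reductase that supplies deoxynucleotides, and the shRRM2/shp16 cells carried in addition a hairpin against the cell cycle inhibitor p16. The series describes shRRM2 as senescence induced by loss of dNTPs and shRRM2/shp16 as bypass of that senescence. Each group rests on a single hairpin combination, and the labels do not say whether the replicates were separate infections, so p-values measure the spread between these libraries, which may be technical.

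Most histone genes sit in clusters, are transcribed in S phase, lack introns, and give mRNAs that end in a stem-loop in place of a poly(A) tail. Variant histone genes lie outside these clusters, and most give polyadenylated mRNAs through the whole cell cycle, so that their proteins can replace canonical histones in cells that do not divide. H3.3, encoded by both H3F3A and H3F3B, is placed at active genes by the HIRA complex and at repeats by DAXX and ATRX; H2A.Z, encoded by H2AFZ and H2AFV, is exchanged by the SRCAP and p400 complexes; macroH2A, encoded by H2AFY and H2AFY2, is linked to silent chromatin and to senescence-associated heterochromatin; and phosphorylated H2AX marks DNA breaks.

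The sequences shown first are those that set H2AFX apart from the other members and the promoters of members that moved alike or in opposite directions. A search of all GENCODE 29 transcripts for the 16 letters of the histone stem-loop, spelled GGNNCTTTTNNGNNCC on the transcript strand, was added after the values had been seen. It matched 177 of 58676 genes, or 0.302%. Among the 9 members it matched H2AFX alone, and among 65 clustered histone genes it matched 30. The annotated transcripts of another 30 of the 65 end at the stop codon, so the letters could not be found in them. The match in H2AFX lies 49 bases after the stop codon at chr11:119094891-119094920 (GRCh38, minus strand), within the only exon of the gene and 1044 bases before the end of its longest transcript. It is printed with the same window of HIST1H2BH at chr6:26252048-26252077 (plus strand) and HIST1H2AG at chr6:27133508-27133537 (plus strand), clustered histone genes that had ranks 1 and 3 in likeness to H2AFX over the 9 libraries; HIST1H2AD, at rank 2, has an annotated transcript of 393 bases that ends at the stop codon. Capitals mark the stem-loop letters.
H2AFX: ccacaaaGGCCCTTTTAAGGGCCaccaccg
HIST1H2BH: acccaaaGGCTCTTTTCAGAGCCacttaat
HIST1H2AG: aaccaacGGCTCTTTTCAGGGCCacccacg

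RefSeq promoter windows (GRCh38.p14, 250 bases before to 50 bases after each start) matched all 9 members, in 13 windows. The 250 bases before the start are printed for H2AFX at chr11:119095466-119095715 (minus strand) and H2AFZ at chr4:99950276-99950525 (minus strand), which moved alike, for H3F3B at chr17:75779780-75780029 (minus strand), which fell and returned, and for H2AFJ at chr12:14774155-14774404 (plus strand), which moved the opposite way. Capitals mark CCAAT, the letters of the cell cycle homology region (TTTGAA or TTCGAA) and TATAAA, each on either strand.
H2AFX: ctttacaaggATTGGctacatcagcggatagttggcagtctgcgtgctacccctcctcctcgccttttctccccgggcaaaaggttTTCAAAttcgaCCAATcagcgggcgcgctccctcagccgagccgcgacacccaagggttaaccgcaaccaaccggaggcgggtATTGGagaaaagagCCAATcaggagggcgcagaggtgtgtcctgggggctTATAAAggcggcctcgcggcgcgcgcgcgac
H2AFZ: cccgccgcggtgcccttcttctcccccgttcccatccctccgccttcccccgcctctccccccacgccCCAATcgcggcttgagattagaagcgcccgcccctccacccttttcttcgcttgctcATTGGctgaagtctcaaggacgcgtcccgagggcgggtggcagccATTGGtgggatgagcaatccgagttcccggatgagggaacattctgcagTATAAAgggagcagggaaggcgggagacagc
H3F3B: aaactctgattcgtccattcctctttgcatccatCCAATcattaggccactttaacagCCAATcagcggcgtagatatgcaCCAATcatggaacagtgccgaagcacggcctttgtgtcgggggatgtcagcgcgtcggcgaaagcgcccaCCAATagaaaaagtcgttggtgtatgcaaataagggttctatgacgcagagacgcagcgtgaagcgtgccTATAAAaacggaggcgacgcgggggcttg
H2AFJ: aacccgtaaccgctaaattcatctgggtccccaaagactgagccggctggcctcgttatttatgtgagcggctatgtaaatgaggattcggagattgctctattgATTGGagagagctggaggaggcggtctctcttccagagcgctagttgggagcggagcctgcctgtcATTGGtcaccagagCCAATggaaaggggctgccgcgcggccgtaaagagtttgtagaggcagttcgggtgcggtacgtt

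CCAAT was present 4 times in the H2AFX, H2AFV and H3F3B windows and 3 times in those of H2AFZ and H2AFJ. It was in 9 of the 13 member windows, which belong to 7 of the 9 members, and in 34.6% of all 35116 windows. TATAAA was present in 4 of the 13 member windows, those of H2AFX, H2AFZ, H3F3B and H1FX, and in 11.5% of all windows. The cell cycle homology letters were present in 3 of the 13 member windows and in 16.4% of all windows. The 3 were those of H2AFX, H2AFZ (5 bases after the start, outside the stretch printed) and H2AFV. The E2F letters TTTCCCGC, TTTGGCGC, TTTCGCGC or TTTGCCGC were in none of the 13 member windows and in 3.31% of all windows. The H1 box letters AAACACA were in 2 of the 4 H3F3A windows and in 5.64% of all windows. A match describes these letters only and is no evidence of binding.

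The libraries held 15770895 to 24873291 gene counts, and 16561 genes passed the filter on low counts, all 9 members among them. RRM2 was at 481 to 491 CPM (counts scaled to library size by TMM) in the control, 60.0 to 63.2 in shRRM2 and 175 to 181 in shRRM2/shp16, so the double-hairpin cells kept 36.5% and the shRRM2 cells 12.8% of the control level. The part that this difference in RRM2 plays in any comparison of the 2 hairpin groups cannot be told apart from that of the p16 hairpin. CDKN2A, whose gene-level count includes the p16 mRNA, was at 5.95 to 6.15 CPM in the control, 5.97 to 6.79 in shRRM2 and 3.93 to 4.57 in shRRM2/shp16, which is 65.8% of the shRRM2 level (log2 change -0.60, SE 0.13, edgeR adjusted p = 7.0e-05). The 10 fibroblast markers summed to 23752 to 27164 CPM in all libraries, while the epithelial, endothelial and leukocyte lists each summed to at most 2.9 CPM, with KRT5 and CD3E at 0. The smooth muscle list summed to 126 to 131 CPM in the control, 108 to 113 in shRRM2 and 47.3 to 53.5 in shRRM2/shp16. All 12 proliferation markers fell in shRRM2 and in shRRM2/shp16 against the control. The share of uniquely mapped reads outside annotated genes was 17.6% to 18.9% in the control, 27.7% to 28.8% in shRRM2 and 23.5% to 24.4% in shRRM2/shp16. These shares moved with the groups, and their part in the results below was not tested. In bulk RNA, fewer cells expressing a gene and less RNA per cell cannot be told apart.

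All 9 members changed in shRRM2 against the control, where 60.9% of all genes tested did (edgeR quasi-likelihood test, Benjamini-Hochberg adjusted p under 0.05, the test behind every gene said to rise or fall). Of the 9, 7 fell and 2 rose, while 31.8% of all genes fell and 29.0% rose. The median change of the 9 was -0.84 on the log2 scale, against 0.00 for all genes tested. In shRRM2/shp16 against shRRM2, 7 members rose and 2 fell, where 61.1% of all genes changed, 31.9% up and 29.1% down; the median was 0.56 for the members and 0.01 for all genes. Against the control, shRRM2/shp16 had 5 members lower, 2 higher and 2 that did not pass the test, with 62.4% of all genes called, 32.4% lower and 30.0% higher, and a member median of -0.12 against 0.01. Summed over the 9 genes, the level was 1425 ± 21.6 CPM in the control, 857 ± 6.07 in shRRM2 and 1099 ± 11.1 in shRRM2/shp16 (SD, n = 3 each). The ranges of the groups did not overlap for any of the 9 members in shRRM2 against the control, nor in shRRM2/shp16 against shRRM2, which also held for 63.6% and 64.7% of all genes; for shRRM2/shp16 against the control it held for 7 members and 66.2% of all genes. The comparisons share libraries, so their counts are not independent of each other.

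**Figure D1:**
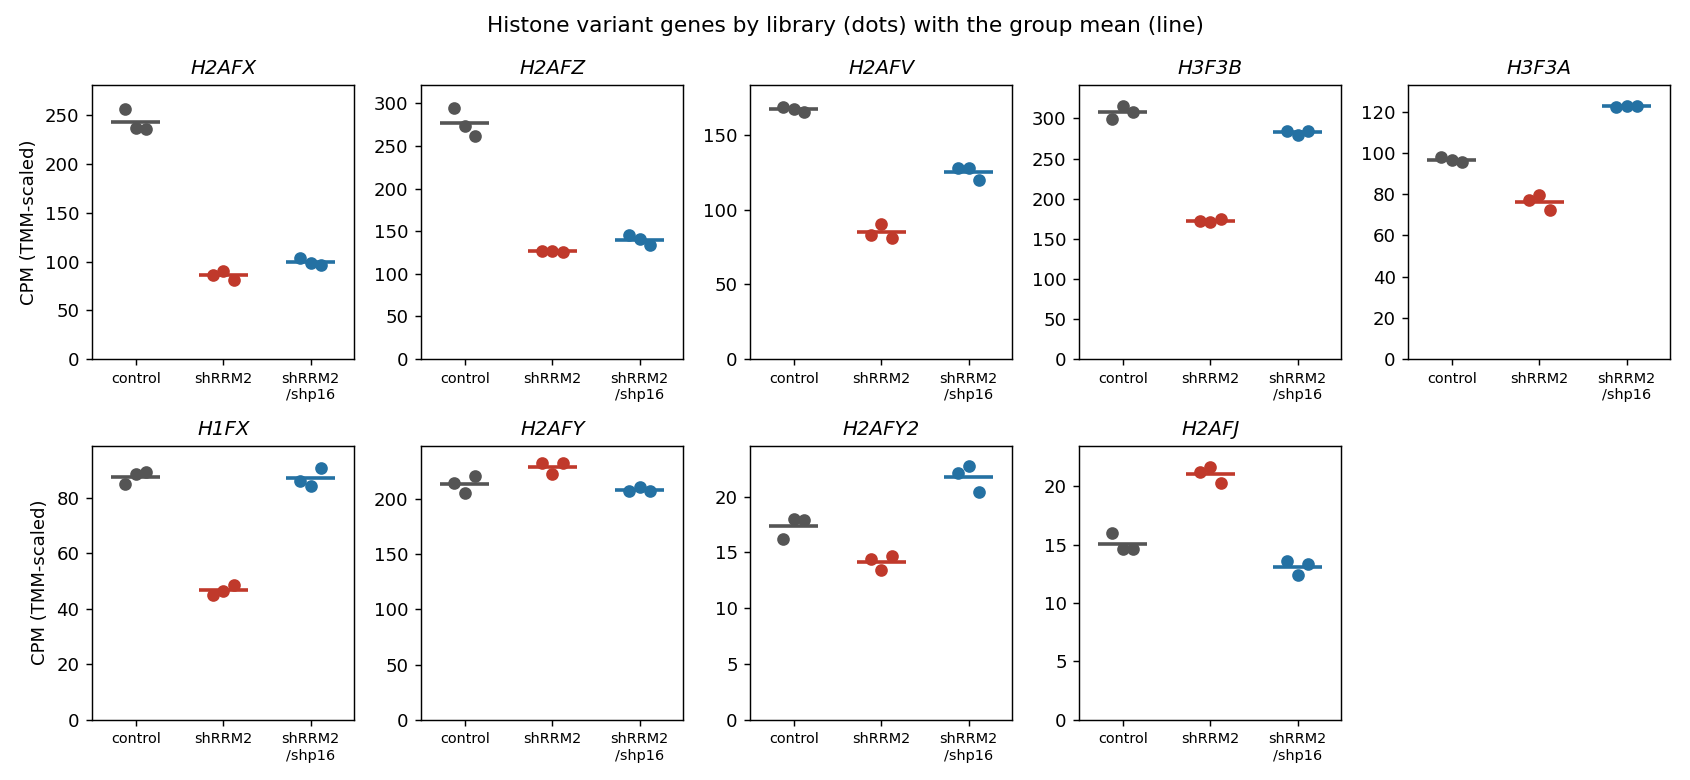
TMM-scaled CPM (vertical axis, from 0) of each histone variant gene in the control, shRRM2 and shRRM2/shp16 libraries; dots are libraries and lines are means of 3. H2AFX and H2AFZ stay low in both hairpin groups, H3F3A, H3F3B and H1FX are lowest in shRRM2, and H2AFJ is highest in shRRM2.

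H2AFX (ENSG00000188486, now H2AX; GRCh38 chr11:119093854-119095467, minus strand, 1 exon) encodes the variant whose phosphorylated form marks double-strand breaks. Its level was 257, 237 and 236 CPM in control a, b and c, 86.6, 90.8 and 81.3 in shRRM2, and 103, 98.2 and 96.2 in shRRM2/shp16. Every control library was above every hairpin library, and the shRRM2/shp16 libraries were above the shRRM2 libraries by a margin that was small beside the distance to the control. The fall of H2AFX in shRRM2 was the deepest of the 9, with a log2 change of -1.498 (SE 0.04, edgeR adjusted p = 1.1e-31), or 2.82-fold. It rose by 0.20 with the p16 hairpin (SE 0.04, edgeR adjusted p = 6.6e-05) and stayed 2.45-fold below the control (log2 change -1.30, SE 0.04, edgeR adjusted p = 3.0e-30). H2AFX is known to give both a stem-loop-ended and a polyadenylated mRNA. The libraries were made after removal of ribosomal RNA and without poly(A) selection, per the labels' protocols, so both forms can enter the count, and the gene-level count does not separate them.

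H2AFZ (ENSG00000164032, now H2AZ1; chr4:99948086-99950388, minus strand) and H2AFV (ENSG00000105968, now H2AZ2; chr7:44826791-44848083, minus strand) encode the near-identical proteins H2A.Z.1 and H2A.Z.2. H2AFZ was at 295, 274 and 262 CPM in the control, 127, 127 and 126 in shRRM2, and 145, 141 and 133 in shRRM2/shp16. H2AFV was at 169, 167 and 165 CPM in the control, 83.0, 90.7 and 81.0 in shRRM2, and 128, 128 and 120.0 in shRRM2/shp16. Neither gene's groups overlapped, and the 2 genes fell by a like amount in shRRM2 but came apart with the p16 hairpin. In shRRM2 the log2 change was -1.13 for H2AFZ (SE 0.04, edgeR adjusted p = 3.0e-28) and -0.98 for H2AFV (SE 0.04, edgeR adjusted p = 4.5e-25). H2AFX and H2AFZ were the 2 members lower by at least 2-fold, which 3.26% of all genes were. In shRRM2/shp16 against shRRM2, H2AFZ rose by 0.14 (SE 0.04, edgeR adjusted p = 0.00142) and H2AFV by 0.56 (SE 0.04, edgeR adjusted p = 2.2e-16). Against the control, shRRM2/shp16 left H2AFZ lower by a log2 change of -0.99 (SE 0.04, edgeR adjusted p = 8.3e-27) and H2AFV by -0.42 (SE 0.04, edgeR adjusted p = 1.6e-13).

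H3F3A (ENSG00000163041, now H3-3A; chr1:226061851-226072001, plus strand) and H3F3B (ENSG00000132475, now H3-3B; chr17:75776434-75785893, minus strand) encode the same H3.3 protein. H3F3A was at 97.9, 96.6 and 95.4 CPM in the control, 77.1, 79.7 and 72.1 in shRRM2, and 122, 123 and 123 in shRRM2/shp16. H3F3B was at 299.8, 315 and 308 CPM in the control, 172, 170.4 and 174 in shRRM2, and 284, 279 and 285 in shRRM2/shp16. Both genes were lowest in shRRM2 in every library. With the p16 hairpin H3F3A stood above the control and H3F3B just below it, again without overlap of the groups. In shRRM2, H3F3B fell by 0.84 (SE 0.03, edgeR adjusted p = 1.2e-26) and H3F3A by 0.34 (SE 0.04, edgeR adjusted p = 6.1e-10) on the log2 scale. In shRRM2/shp16 against shRRM2 they rose by close amounts, 0.71 for H3F3B (SE 0.03, edgeR adjusted p = 3.1e-24) and 0.68 for H3F3A (SE 0.04, edgeR adjusted p = 1.3e-19). Against the control, H3F3A ended higher by 0.34 (SE 0.04, edgeR adjusted p = 7.4e-11) and H3F3B lower, with a log2 change of -0.12 (SE 0.03, edgeR adjusted p = 2.7e-04).

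H1FX (ENSG00000184897, now H1-10; chr3:129314771-129316277, minus strand, 1 exon) encodes a linker histone commonly listed as replication-independent. It was at 84.9, 88.7 and 89.5 CPM in the control, 44.9, 46.6 and 48.5 in shRRM2, and 86.1, 84.4 and 90.9 in shRRM2/shp16. All shRRM2 libraries were below all others, and the shRRM2/shp16 libraries lay in and around the control range. In shRRM2, H1FX fell by 0.91 (SE 0.05, edgeR adjusted p = 1.7e-21) on the log2 scale. From shRRM2 to shRRM2/shp16, H1FX rose by 0.90 (SE 0.05, edgeR adjusted p = 1.6e-21), the largest rise of the 9 in that comparison. Against the control, the H1FX change of -0.01 in shRRM2/shp16 had a 95% interval of -0.09 to 0.07 (edgeR adjusted p = 0.890). H1FX-AS1, which lies antisense to H1FX, held 36 to 124 counts per library, 5.66% of the H1FX total, and since no source gives the strand setting used in counting, reads of the pair cannot be told apart with certainty. The same holds for the other members that a gene on the opposite strand overlaps. AIFM2 held 245 to 633 counts per library, 121% of the H2AFY2 total, and UNK held 10.0% of the H3F3B total. C5orf66 and AC026691.1 held 2.07% and 0.322% of the H2AFY total, AC097460.1 0.133% of the H2AFZ total and AL512343.2 0.0844% of the H3F3A total.

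H2AFY (ENSG00000113648, now MACROH2A1; chr5:135333900-135399914, minus strand) and H2AFY2 (ENSG00000099284, now MACROH2A2; chr10:70052796-70112280, plus strand) encode macroH2A1 and macroH2A2. H2AFY was at 215, 205 and 221 CPM in the control, 233, 222 and 233 in shRRM2, and 207, 211 and 207 in shRRM2/shp16. H2AFY2 was at 16.2, 18.0 and 17.9 CPM in the control, 14.4, 13.4 and 14.6 in shRRM2, and 22.1, 22.7 and 20.4 in shRRM2/shp16. H2AFY2 had far fewer counts than H2AFY, but CPM are not scaled for gene length and do not rank genes against each other. H2AFY was the steadiest member, and the lowest shRRM2 library lay just above the highest control library. H2AFY2 was lowest in shRRM2 and highest in shRRM2/shp16. In shRRM2, H2AFY rose by 0.10 (SE 0.03, edgeR adjusted p = 0.00568) and H2AFY2 fell by 0.29 (SE 0.08, edgeR adjusted p = 0.00163) on the log2 scale. Without control replicate b the H2AFY change was 0.07 (adjusted p = 0.0594, edgeR), and with no filter on low counts it was 0.06 (adjusted p = 0.175, edgeR), which ends that call. From shRRM2 to shRRM2/shp16, H2AFY fell (log2 change -0.14, SE 0.03, edgeR adjusted p = 1.9e-04) and H2AFY2 rose by 0.62 (SE 0.08, edgeR adjusted p = 1.8e-09). Against the control, H2AFY2 ended higher by 0.33 (SE 0.07, edgeR adjusted p = 8.4e-05), and the H2AFY change of -0.04 had a 95% interval of -0.10 to 0.02 (edgeR adjusted p = 0.286). The counts do not separate the macroH2A1.1 and macroH2A1.2 splice forms of H2AFY.

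H2AFJ (ENSG00000246705, now H2AJ; chr12:14774383-14778002, plus strand) encodes H2A.J, a variant known to accumulate in senescent fibroblasts. It was at 16.0, 14.6 and 14.7 CPM in the control, 21.3, 21.7 and 20.3 in shRRM2, and 13.6, 12.4 and 13.4 in shRRM2/shp16, from 246 to 382 counts per library. All shRRM2 libraries were above all others, and all shRRM2/shp16 libraries were below all others. H2AFJ rose by 0.48 in shRRM2 (SE 0.07, edgeR adjusted p = 4.4e-07), the larger of the 2 rises there and 1.39-fold, and fell by 0.69 with the p16 hairpin (SE 0.08, edgeR adjusted p = 1.6e-10). Against the control, shRRM2/shp16 was lower by a log2 change of -0.21 (SE 0.08, edgeR adjusted p = 0.0195). That call was lost without control replicate a (-0.15, adjusted p = 0.156, edgeR), without shRRM2/shp16 replicate b (-0.17, adjusted p = 0.105, edgeR) and with DESeq2 (-0.20, adjusted p = 0.0665).

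**Figure D2:**
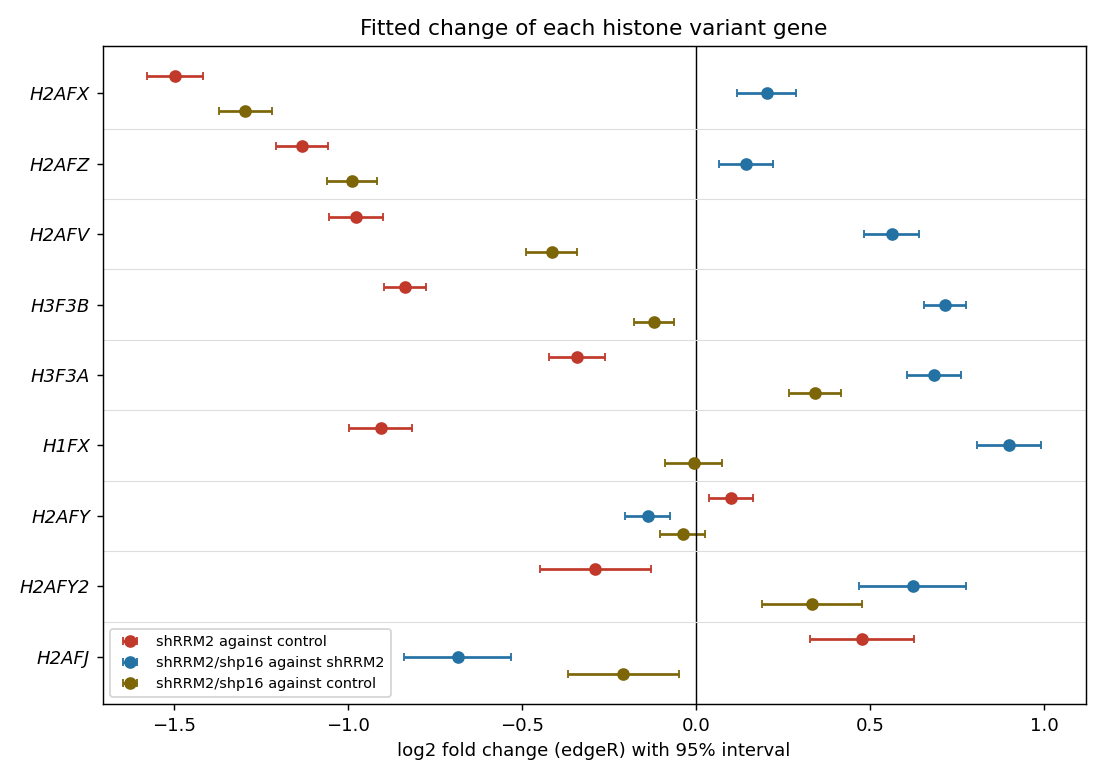
Fitted log2 fold change (horizontal axis) of each histone variant gene in the 3 comparisons of the groups, with 95% intervals from edgeR. H2AFX has the lowest value at -1.498, and H2AFJ and H2AFY have the opposite signs to the other 7 genes in the comparisons that involve shRRM2.

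In the authors' deposited table of shRRM2/shp16 against shRRM2, 7 of the 9 members are marked significant, 6 higher and 1 lower. The log2 changes in the authors' deposited table include 0.94 for H1FX, 0.78 for H3F3B, 0.71 for H3F3A and -0.65 for H2AFJ. H2AFZ, with a q-value of 0.322, and H2AFY, with a q-value of 0.797, are not marked in the authors' deposited table; these were the 2 members with the smallest changes in the counts as well.

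Of the members, 6 form 3 pairs of related proteins, and the balance within each pair was followed as the ratio of their counts in the same library, which needs no scaling between libraries. The ratio of H3F3B to H3F3A was 3.06, 3.26 and 3.23 in the control, 2.22, 2.14 and 2.42 in shRRM2, and 2.32, 2.27 and 2.32 in shRRM2/shp16. Both hairpin groups thus lay below the control and overlapped each other. The mean ratio was 3.18 ± 0.107 in the control, 2.26 ± 0.142 in shRRM2 and 2.30 ± 0.0288 in shRRM2/shp16 (SD, n = 3 each), and the difference between the hairpin groups was 0.03 on the log2 scale (exact permutation test, two-sided p = 0.6).

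The ratio of H2AFZ to H2AFV was 1.75, 1.64 and 1.58 in the control, 1.53, 1.40 and 1.55 in shRRM2, and 1.13, 1.10 and 1.11 in shRRM2/shp16. It was lowest in shRRM2/shp16, with no overlap, so the 2 H2A.Z genes were closest to equal counts there. The ratio of H2AFY to H2AFY2 was 13.3, 11.4 and 12.3 in the control, 16.1, 16.6 and 15.9 in shRRM2, and 9.34, 9.27 and 10.1 in shRRM2/shp16. This ratio was highest in shRRM2 and lowest in shRRM2/shp16, with no overlap between groups. Of the 9 differences over the 3 pairs, 8 had two-sided exact permutation p = 0.1, the smallest that 3 against 3 libraries allow, and 0.113 after Benjamini-Hochberg adjustment over the 9, so none passes 0.05. Reads of a pair's genes can be shared where their coding sequences are alike, and the counts of their processed pseudogenes came to at most 0.368% of the parent gene's total (H3F3A). Alignments that were not unique, 40.3% to 44.9% of all those tallied in a library, are in no gene's count. Low pseudogene counts therefore cannot show how many reads of these genes were left out.

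**Figure D3:**
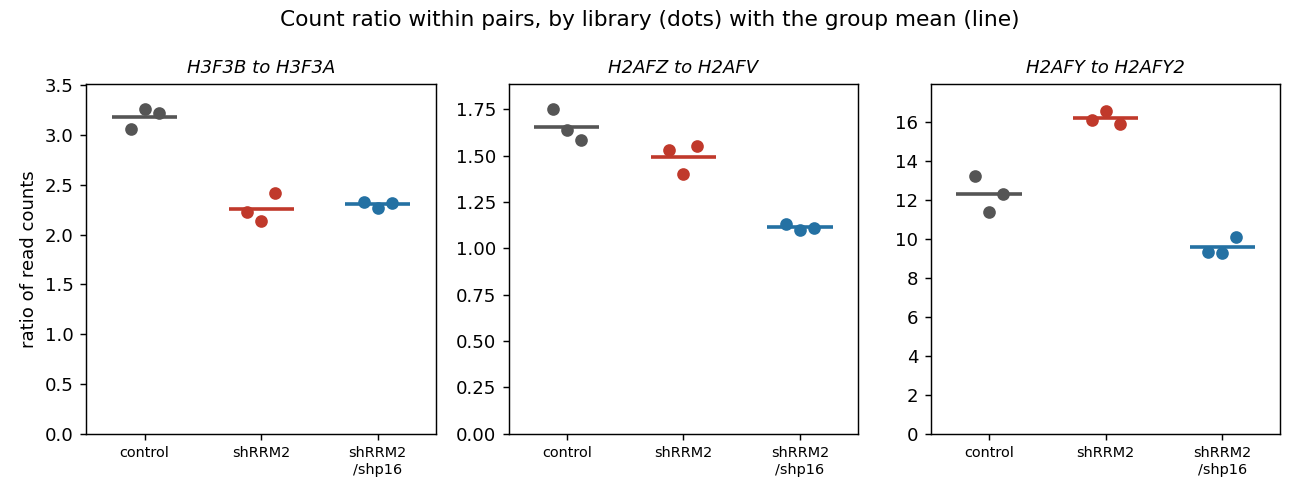
Ratio of read counts (vertical axis, from 0) within 3 pairs of histone variant genes in the control, shRRM2 and shRRM2/shp16 libraries; dots are libraries and lines are means of 3. The H3F3B to H3F3A ratio is lower in both hairpin groups, at 2.26 and 2.30 against 3.18, and the other 2 ratios are lowest in shRRM2/shp16.

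Levels can be set against each other between genes only per length, here as CPM per kilobase of the union of annotated exons. In the control the order of these levels was H2AFX (151), H2AFZ (120.2), H1FX (58.2), H3F3B (50.1), H2AFV (35.2), H3F3A (30.7), H2AFY (12.1), H2AFY2 (8.77) and H2AFJ (4.49). No neighbours in that order overlapped over the 3 libraries. In shRRM2 the level per kilobase of H2AFZ (54.9) and H2AFX (53.5) overlapped, followed by H1FX (31.0), H3F3B (28.1), H3F3A (24.3), H2AFV (17.9), H2AFY (12.9), H2AFY2 (7.14) and H2AFJ (6.28). In shRRM2/shp16 the levels per kilobase of H2AFX (61.5), H2AFZ (60.6) and H1FX (57.9) overlapped from neighbour to neighbour, with H3F3B (46.0), H3F3A (39.0), H2AFV (26.4), H2AFY (11.7), H2AFY2 (10.99) and H2AFJ (3.91) below them. The distance from the highest to the lowest member was thus smaller in shRRM2 than in the control. The exon union of H2AFY is 17730 bases long, which includes rarely used exons and lowers its level per kilobase. For H2AFZ the union is the whole 2303 bases of the gene, and for H3F3B it is 6134 of 9460 bases. The order between genes thus depends on the annotation used.

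Over the 9 libraries, the genes whose log2 CPM followed each member most closely were ranked by Pearson's r among 11288 genes. All r come from the same 9 libraries and mostly reflect the 3 group means, so they are given as a description. H2AFX was most like HIST1H2BH (r = 0.999), HIST1H2AD (0.999) and HIST1H2AG (0.999), and H2AFZ was most like H2AFX (0.998), HIST1H2BH (0.997) and HIST1H1C (0.997). The genes nearest H2AFX were thus clustered histones. H3F3B was most like ADARB1 (0.9997), CREBBP (0.999) and MTR (0.997), H3F3A like ZNF697 (0.997), HDAC4 (0.996) and KCNF1 (0.995), and H1FX like KCTD12 (0.997), RPRD2 (0.996) and BRD8 (0.996). H2AFV was most like DHX9 (0.997), RPLP0 (0.997) and KCTD3 (0.996), H2AFY2 like KLHL15 (0.988), ZBTB10 (0.985) and PRMT3 (0.984), and H2AFJ like TMEM214 (0.998), SLC7A6 (0.993) and NEDD9 (0.992). None was sought for H2AFY, whose group means span 0.14 on the log2 scale.

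The replication-dependent clustered histone genes gave the scale for H2AFX. Of 65 listed, 58 could be tested, and all 58 fell in shRRM2 with a median log2 change of -2.15, from -3.00 for HIST2H3D to -1.04 for HIST4H4. H2AFX, at -1.498, lay inside that range, and the other 8 members included H2AFZ at -1.13 inside it and 7 above it. With the p16 hairpin 53 of the 58 rose and none fell, with a median of 0.41, above the 0.20 of H2AFX. All 58 remained below the control, with a median of -1.73. All 12 proliferation markers also fell in shRRM2, with a median of -1.54, MKI67 by 1.69. With the p16 hairpin they were mixed: 7 rose, 2 fell and 3 did not pass the test, with a median of 0.26. TOP2A had the highest value there at 0.74, MKI67 rose by 0.27, and E2F1 had the lowest value at -0.70. Among all genes tested, 31.8% fell in shRRM2, and with the p16 hairpin 31.9% rose and 29.1% fell. The part that the share of cycling cells plays in the changes of the members was not tested.

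**Figure D4:**
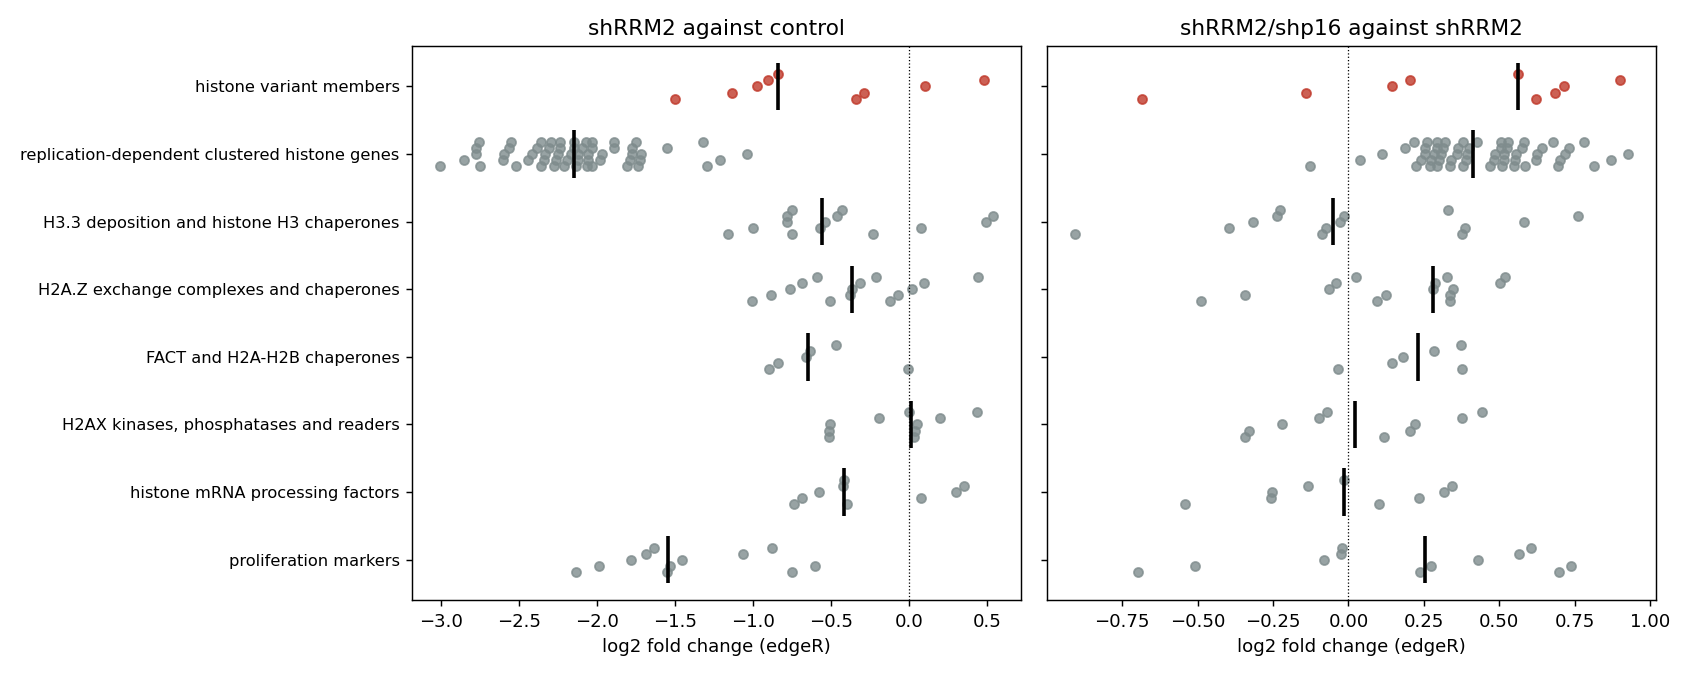
Log2 fold change (horizontal axis, edgeR) of each tested gene of 8 lists, with shRRM2 set against control on the left and shRRM2/shp16 set against shRRM2 on the right; dots are genes, the histone variant members are in red, and black bars are medians. The clustered histone genes lie between -3.00 and -1.04 in shRRM2 against control, below all members but H2AFX and H2AFZ.

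Of 14 chaperones of H3, 10 fell and 2 rose in shRRM2, where 31.8% of all genes fell and 29.0% rose, with a median log2 change of -0.56. TONSL, which reads new histones behind the fork, fell by 1.16 (SE 0.08), CHAF1A and CHAF1B, subunits of the replication-coupled chaperone CAF-1, fell by 0.75 (SE 0.05) and 0.57 (SE 0.08), and ASF1A, which hands H3.3 to HIRA, fell by 0.75 (SE 0.08). HIRA fell by 0.43 (SE 0.11) and its partner UBN1 by 0.23 (SE 0.04), while CABIN1 had a value of 0.07 (SE 0.04) that did not pass the test. UBN2 rose by 0.54 (SE 0.05) and ATRX, the remodeller that works with DAXX, by 0.49 (SE 0.03). From shRRM2 to shRRM2/shp16, 5 rose and 5 fell, or 35.7% each way, near the 31.9% and 29.1% of all genes. ASF1A rose by 0.58 (SE 0.08), ATRX by 0.39 (SE 0.03), while CHAF1B fell further by 0.91 (SE 0.09) and ASF1B by 0.40 (SE 0.08). DAXX had the largest rise of that list, 0.76 (SE 0.25), but at no more than 45 counts in any library; its symbol has 6 identifiers in the files, and the call was lost without shRRM2 replicate c (0.57, adjusted p = 0.0671, edgeR).

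Of 15 genes of the H2A.Z exchange complexes and chaperones, 11 fell and 1 rose in shRRM2 (median -0.36), and with the p16 hairpin 8 rose and 2 fell (median 0.28). Among all genes tested, 31.8% fell and 29.0% rose in shRRM2, and 31.9% rose and 29.1% fell with the p16 hairpin. ANP32E, the chaperone that removes H2A.Z, fell by 1.003 (SE 0.04) and rose by 0.52 (SE 0.04). SRCAP, the exchange ATPase, fell by 0.38 (SE 0.03) and rose by 0.34 (SE 0.03), and VPS72, the subunit that binds H2A.Z, fell by 0.51 (SE 0.06) and rose by 0.35 (SE 0.06). EP400 fell by 0.22 (SE 0.03) and then had a value of -0.06 (SE 0.03) that did not pass the test. ZNHIT1, another SRCAP subunit, moved the other way, by 0.44 (SE 0.04) and -0.49 (SE 0.04). Of 6 genes of FACT and other H2A-H2B chaperones, 5 fell and none rose in shRRM2, among them SSRP1 by 0.90 (SE 0.03) and SET by 0.84 (SE 0.03), and 5 rose with the p16 hairpin, SET by 0.38 (SE 0.03).

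Of 12 kinases, phosphatases and readers of H2AX, 10 could be tested; 2 rose and 4 fell in shRRM2, with a median of 0.01, so the list as a whole lay near all genes tested (29.0% up, 31.8% down, median 0.00). ATM, the kinase that phosphorylates H2AX at breaks, rose by 0.43 (SE 0.04) and the related kinase PRKDC fell by 0.52 (SE 0.03), while H2AFX itself fell. With the p16 hairpin 5 rose and 4 fell, where 31.9% of all genes rose and 29.1% fell. TP53BP1, a reader of broken chromatin, rose by 0.44 (SE 0.03), and EYA3, a phosphatase of H2AX, fell by 0.34 (SE 0.05). MDC1, the reader of phosphorylated H2AX, has 8 identifiers in the files and at most 3 counts on the one used, and could not be tested. Of 9 factors of histone mRNA processing, 6 fell and 2 rose in shRRM2. SLBP, which binds the stem-loop, fell by 0.42 (SE 0.05) and ERI1, which trims histone mRNA, by 0.74 (SE 0.06). CASP8AP2 had the highest value of that list, 0.35. In shRRM2/shp16 against shRRM2, 4 rose and 4 fell, 44.4% each way. LSM11, of the histone pre-mRNA cleavage complex, fell by 0.54 (SE 0.10), and LSM10 had the highest value, 0.34. Of 13 other variant histone genes, 2 could be tested, and CENPA, the centromeric H3 variant, which is made in G2, fell from 30.7 to 32.6 CPM in the control to 6.09 to 7.63 in shRRM2 and was at 10.5 to 11.9 in shRRM2/shp16. Its log2 change was -2.20 (SE 0.08) in shRRM2 and 0.71 (SE 0.10) with the p16 hairpin.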

How the data were processed

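RNA was measured in 9 IMR90 libraries in 3 groups of 3. The authors deposited 1 file of raw counts by Ensembl identifier per library, laid out as HTSeq writes them, and the submitters' processing notes name TopHat2 2.0.9, Cufflinks 2.0.2, Cuffdiff and GRCh38, with no role given. They also deposited a table of log2 RPKM values per library, a score column that was not used, and, for shRRM2/shp16 against shRRM2, log2 fold changes, p-values and q-values, per the file headers; the signs of these fold changes were read as shRRM2/shp16 over shRRM2. The deposited log2 RPKM values equal log2(x + 1), where x is RPKM divided by a constant of 1000, and 8 of the 9 columns match their count file; that of shRRM2 c differs. Tally lines that name no gene were left out of library sizes.

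Genes were filtered with filterByExpr (at least 10 counts), scaled by TMM and fitted in edgeR 4.0.16 (R 4.3.3) by the quasi-likelihood test over all 9 libraries, with 6 residual degrees of freedom; p-values were adjusted over 16561 genes and called under 0.05. The edgeR test of shRRM2 against the control was checked on simulated counts, and the other tests were not. Alternatives were RLE scaling, DESeq2 1.42.0, no filter, 10 counts in every library, only the 6 libraries compared, a replicate block, limma 3.58.1 on RPKM (pseudocount 0.1), and each library left out. Lengths are exon unions of GENCODE 29. Pair ratios were tested by exact permutation. Besides all 9 members, the genes set to be named were RRM2, CDKN2A, MKI67, 15 fixed factors and the highest and lowest called gene of each list. The 3 genes most alike each member whose group means span at least 0.5 log2 were also set to be named. Some of the highest and lowest genes are not printed. ASF1B, SLBP and the cell type markers named were outside this rule. The members and lists were chosen with earlier results of these data known; 1 further gene of the set is not reported here. Replicate letters do not pair the libraries.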

Additional observations from a re-analysis of the deposited data

How the results depend on the processing

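Over 17 alternative settings, 444 of the 459 values of the members kept their side of the threshold. Of the rest, 14 lost the call and 1 gained it. Every value called in the main fit kept its direction, but values called in neither fit were counted as kept whatever their sign. On all 9 RPKM columns H1FX and H2AFY in shRRM2/shp16 against the control were 0.09 and 0.06, against -0.01 and -0.04 in the counts. Of the 405 values from count-based settings, 400 kept their side of the threshold. The call gained was that of H1FX in shRRM2/shp16 against the control, with the sign changed, at 0.094 (limma adjusted p = 0.0419). It came on the 8 matching RPKM columns, a setting added after seeing the data. The median of all genes there was 0.11, against 0.01 in the counts. On all 9 RPKM columns the rises of H2AFX (0.11, limma adjusted p = 0.294) and H2AFZ (0.10, limma adjusted p = 0.276) with the p16 hairpin lost the call, as did H2AFY in that comparison (-0.03, limma adjusted p = 0.603) and in shRRM2 (0.10, limma adjusted p = 0.121), and in shRRM2/shp16 against the control H2AFJ (-0.10, limma adjusted p = 0.454) and H3F3B (-0.02, limma adjusted p = 0.855). On those columns 1 member rose in shRRM2 in place of 2. With the p16 hairpin 11 clustered histone genes rose there and 1 fell, against 53 and 0 in the counts. The 1 that fell was HIST4H4 (-0.10, limma adjusted p = 0.0474). On the 8 columns that match their count files, without shRRM2 c, H2AFX (0.22, limma adjusted p = 0.00194) and H2AFZ (0.19, limma adjusted p = 0.00762) kept the call with the p16 hairpin, as did H2AFY in shRRM2 (0.13, limma adjusted p = 0.0190), 2 members rose in shRRM2, and 54 clustered histone genes rose with the p16 hairpin. There H2AFY with the p16 hairpin (-0.07, limma adjusted p = 0.163), and H2AFJ (limma adjusted p = 0.168) and H3F3B (limma adjusted p = 0.545) in shRRM2/shp16 against the control, again lost the call, and the cause was not tested. The difference in the H3F3B to H3F3A ratio between the hairpin groups ranged from -0.0082 to 0.0797 when 1 library was left out, the lowest without shRRM2 replicate b.

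Same-lettered libraries did not deviate together (correlations from -0.02 to 0.05). With the letter as a replicate block, 9 members and 10101 genes were called in shRRM2 against the control, 9 and 10134 in shRRM2/shp16 against shRRM2, and 7 and 10388 in shRRM2/shp16 against the control. The ratio differences under the block were the same in size, but an exact permutation test by sign flips of 3 pairs allows no p below 0.25. H2AFY2 and H2AFJ had the fewest counts of the members, 227 to 456 and 246 to 382 per library.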
